A study of Mus musculus with 6 samples.

Results

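The genes described here are the glutathione and NRF2 antioxidant genes of mouse embryonic fibroblasts, cells of connective tissue grown in culture from dissociated embryos. They were selected by a list of gene symbols that takes the numbered glutathione transferase genes of the alpha, mu, pi, theta, omega and kappa classes, the numbered glutathione peroxidases, and 17 further enzymes and regulators. The platform annotation named probes for 44 of them, out of 19057 genes tested, and Gsr and Prdx6, which the list also names, had no probe under those symbols. RNA was measured on Illumina bead arrays in cells with both Lasp1 alleles intact (Lasp1+/+, called wild type, 3 arrays) and in cells with both disrupted (Lasp1-/-, called knockout, 3 arrays). LASP1 is an actin-binding LIM and SH3 domain protein. All cells were of the C57Bl/6NCr strain and no treatment is named. The labels do not say whether the 3 arrays of a genotype came from separate embryos or cultures, so every p-value measures the spread between these arrays, which may be technical. The sources used here give neither the age of the embryos, nor the passage of the cells, nor how Lasp1 was disrupted.

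Glutathione is a tripeptide of glutamate, cysteine and glycine that cells use to reduce peroxides and to tag reactive chemicals for export. Its synthesis depends on cystine taken up by the SLC7A11 transporter and on glutamate-cysteine ligase, whose catalytic and modifier subunits are GCLC and GCLM. Glutathione peroxidases spend it on peroxides and glutathione transferases attach it to electrophiles. NRF2, the protein of Nfe2l2, is a transcription factor that KEAP1 holds at a low level by marking it for degradation. When oxidants or electrophiles modify KEAP1, NRF2 accumulates and activates genes through a DNA motif called the antioxidant response element. NRF2 is controlled mainly at the level of the protein, which arrays do not measure.

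Lasp1 itself was lower in every knockout array, at 51904, 51019 and 49770 against 135295, 148208 and 148809 in wild type, a log2 difference of -1.50 ± 0.07 (SE, limma adjusted p = 1.17e-05). The position of its probes relative to the disrupted part is not given in the sources used here. All arrays had a median intensity of 1000, and their upper quartiles ran from 2018 to 2330, highest in wild type replicate 2 and next in knockout replicate 1 (2283). All 10 fibroblast markers were bright, the dimmest (Col3a1) with means of 8692 and 7552 in wild type and knockout. Of these 10 markers 5 were called lower in knockout, and the summed intensity of all 10 was 996357 to 1157293 in wild type and 812180 to 867690 in knockout. Of 6 epithelial markers Krt14 and Krt8 were called lower (sum of all 6, 20052 to 25092 against 8144 to 8354). Most of that sum was Krt14, with means of 15557 in wild type and 2565 in knockout. Differences were below 0 for 4 of the 6 and above 0 for 2. Krt18 was higher in every knockout array but not called (0.18 ± 0.08 SE, limma adjusted p = 0.246). Of 4 adipocyte markers Adipoq was called lower (sum of all 4, 6424 to 7550 against 3534 to 3759). Of 4 measured macrophage and leukocyte markers Lyz2 was called higher (sum of all 4, 6303 to 7349 against 8574 to 8965). Of 4 skeletal muscle markers Acta1 was called higher (sum of all 4, 10071 to 11754 against 19593 to 20654). Alone, Adipoq had means of 4105 in wild type and 1010 in knockout, Lyz2 of 3772 and 5535, and Acta1 of 4546 and 12873. Of 4 endothelial, 4 hepatocyte and 2 measured erythroid markers limma called 0, with 2, 0 and 0 at an unadjusted p under 0.05. Means were not above 1000 in either group for 2 of 6 epithelial markers (Epcam, Krt5) and 2 of 4 adipocyte markers (Fabp4, Plin1). The same held for 1 of 4 leukocyte (Ptprc), 1 of 4 endothelial (Cdh5) and 1 of 4 muscle markers (Myod1). It also held for all measured hepatocyte and erythroid markers. The other measured markers of these lists had a mean above 1000 in at least 1 group. The part of these shifts in the results below was not tested. In cultures measured in bulk, fewer cells of a type and less RNA per cell cannot be told apart.

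In the comparison of genotypes, which asks what differs between Lasp1-/- and Lasp1+/+ cells, 5 of the 44 genes fell in knockout cells and 1 rose, while 38 did not pass. If the arrays of a genotype came from 1 culture, genotype and culture cannot be told apart. The falls were Gstm2, Gclm, Gpx7, Slc7a11 and Gstk1, and the rise was the theta-class transferase Gstt3. Every change was under 1.5-fold, with sizes from 0.36 to 0.56 on the log2 scale. A gene counts as called at a limma p under 0.05 after Benjamini-Hochberg adjustment over all genes. Called genes made up 13.6% of the 44, against 6.28% of all 19057 genes tested (418 higher and 778 lower, or 1009 higher and 1083 lower after quantile normalization). Lower calls alone were 4.08% and higher calls 2.19% of all genes. Most of the list is bright, and the closer comparison is with bright genes: in 37 of the 44 the mean exceeded that of the median probe, 6 of these 37 were called (16.2%), and so were 9.94% of all 11985 genes above that median.

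The median log2 difference of the 44 genes was -0.05, against -0.02 over all genes, and 29 of 44 differences were below 0 (65.9%, against 58.0% of all genes). For the 37 bright members the median was -0.060, near the -0.056 of all bright genes, and 70.3% were below 0, against 63.1%. The 3 knockout arrays lay wholly below the 3 wild-type arrays for 9 genes and wholly above for 3, together 27.3% of the 44, against 14.0% and 7.34% of all genes, together 21.3%. The 6 called genes are among these 12, with Gsta4, Gstm1, Gstp1 and Gpx2 lower and Nfe2l2 and Gclc higher but not called. Gpx2 and Gclc read near the array median. At an unadjusted p under 0.05 there were 12 of 44 genes (27.3%), against 18.6% of all genes. Among bright genes the excess was smaller: 32.4% of the 37 members had separate groups, against 27.7% of bright genes, and 32.4% passed unadjusted, against 28.3%.

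**Figure D1:**
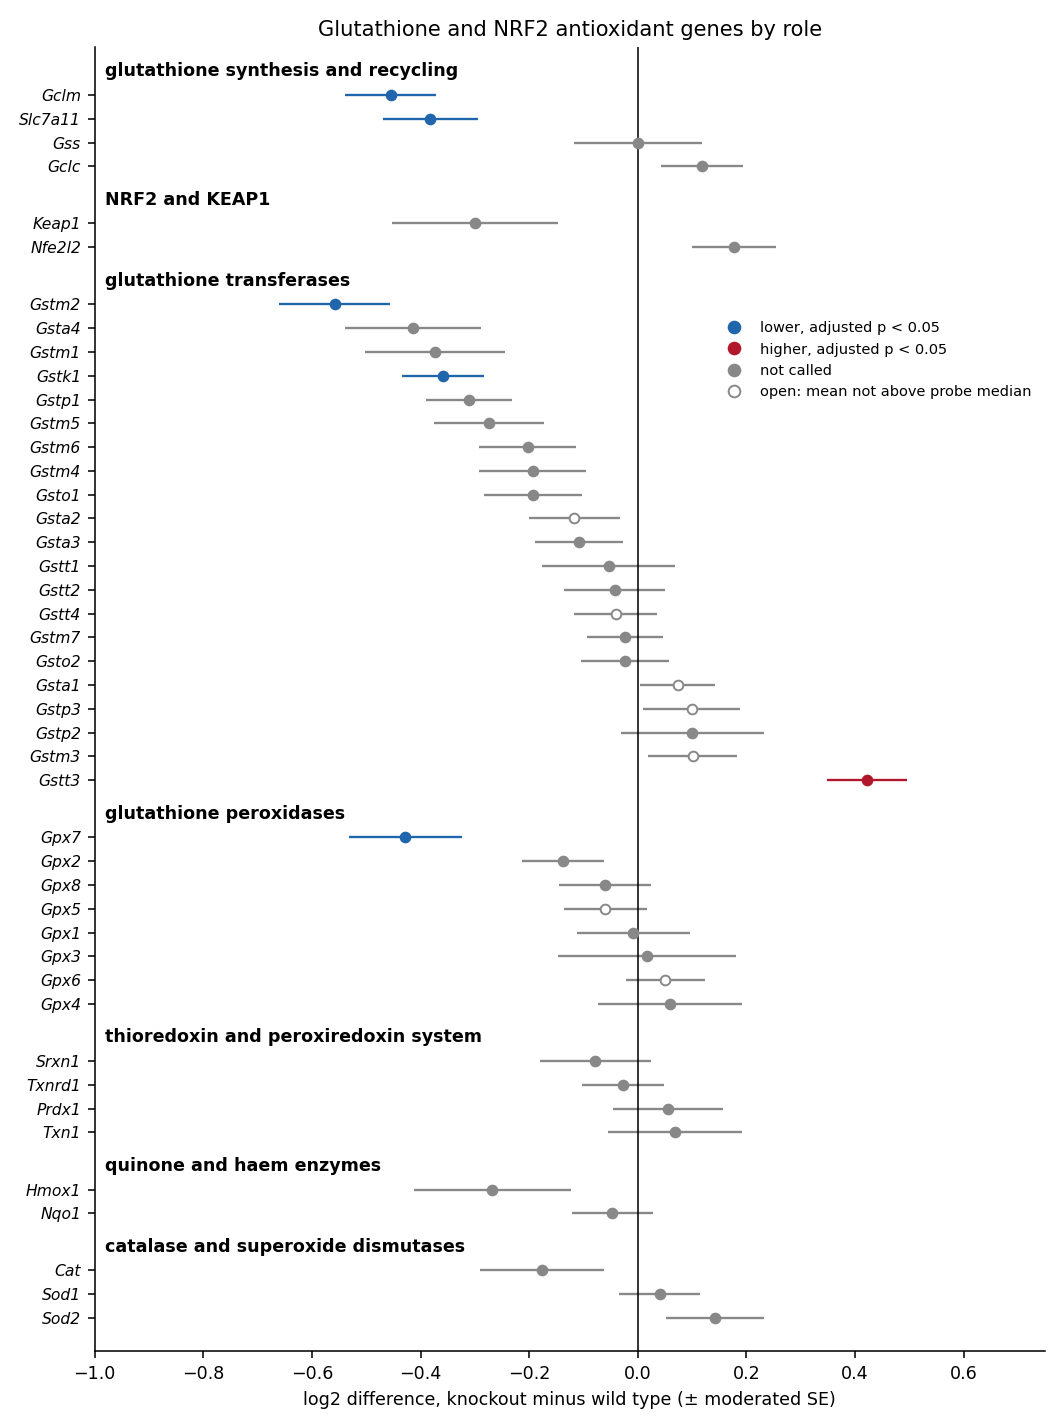
Log2 difference (knockout minus wild type) of the 44 genes on the x axis, grouped by role, with bars for the moderated standard error of limma and n = 3 arrays per genotype. Blue points are genes called lower, the red point is the gene called higher, grey points were not called, and open points are the 7 genes whose mean did not exceed the median of all probes. The 5 lower calls lie between -0.36 and -0.56 and Gstt3 stands alone at 0.42.

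Glutathione synthesis held 2 of the falls among its 4 measured genes. Gclm, the modifier subunit that raises the activity of glutamate-cysteine ligase, read 8422, 8986 and 8085 in wild type and 6778, 6048 and 5792 in knockout. The highest knockout array lay well below the lowest wild-type array, and the gene stood at 72.9% of wild type (log2 difference -0.46 ± 0.08 SE, limma adjusted p = 0.0133). It has 1 probe on the array. Slc7a11, the light chain of the cystine and glutamate exchanger, read 3169, 3446 and 3206 in wild type and 2801, 2348 and 2406 in knockout. Again the groups did not overlap, with knockout replicate 1 nearest to wild type, and the level was 76.7% of wild type (-0.38 ± 0.09, limma adjusted p = 0.0337). A second Slc7a11 probe above the median gave a like difference (-0.35 ± 0.08), while its other 3 probes lay below 1010 in every array except for 1 reading of 1020. Averaging in those dim probes brought the difference of Slc7a11 to -0.19, which did not pass (limma adjusted p = 0.0976, in a range of 0.00374 to 0.165 over its alternatives).

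The other synthesis genes did not pass. Gclc, the catalytic subunit of the same ligase, read 996, 885 and 980 in wild type and 1000, 1051 and 1050 in knockout (0.12 ± 0.08, limma adjusted p = 0.490). Its single probe sat at the array median in both genotypes, where the arrays cannot tell a low level from background. Gss, glutathione synthetase, which adds glycine in the last step, had means of 3972 ± 327 and 3996 ± 612 (SD, n = 3 each), a difference of 0.00 ± 0.12. Its 4 probes went both ways, from -0.06 to 0.28.

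The regulators NRF2 and KEAP1 were not called at the RNA level. Nfe2l2 read 2342, 2563 and 2301 in wild type and 2856, 2579 and 2708 in knockout. Every knockout array was above every wild-type array, by a narrow margin between wild type replicate 2 and knockout replicate 2, and the difference of 0.18 ± 0.08 did not pass (limma adjusted p = 0.264). Keap1 read 12560, 18745 and 14963 in wild type and 14524, 10730 and 12115 in knockout. These ranges overlapped, and the difference of -0.30 ± 0.15 did not pass (limma adjusted p = 0.356). Keap1 has 5 probes, of which the 4 above the median lay between -0.18 and -0.30 and none was called.

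**Figure D2:**
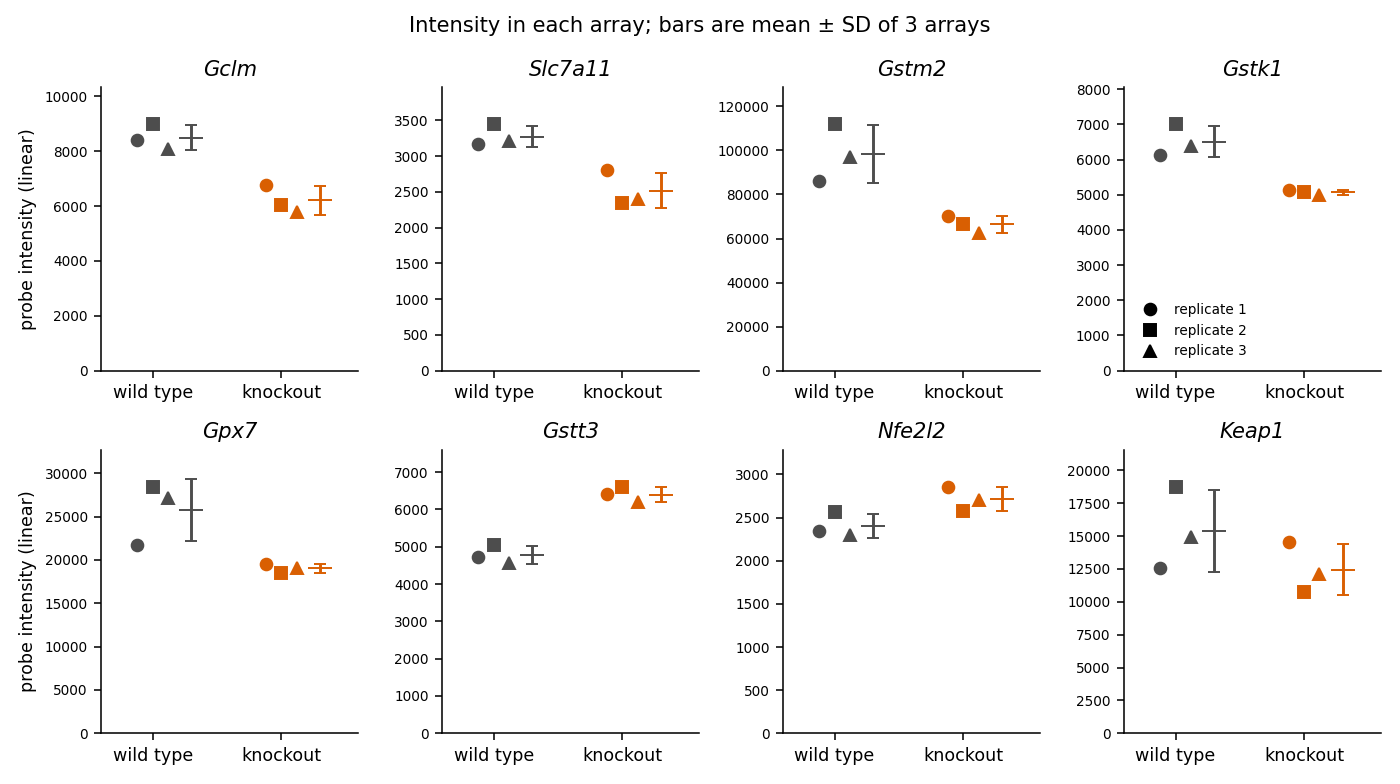
Probe intensity (linear scale from 0) in each of the 6 arrays for the 6 called genes and for Nfe2l2 and Keap1, with wild type in grey and knockout in orange, symbols for replicates 1 to 3 and bars for the mean ± SD of 3 arrays. The groups are separate for the 6 called genes and for Nfe2l2, and overlap for Keap1, whose highest value is wild type replicate 2 at 18745.

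Promoter sequences were searched because NRF2 acts through a short motif. Windows from 250 bases before to 50 after a transcript start were taken from RefSeq (GRCm38.p6) and matched 40 of the 44 genes by symbol, with 52 windows. The core of the antioxidant response element, TGACNNNGC on either strand, was present in 9 of the 52 windows, and in 12.4% of all 32851 windows. Of the called genes, Gclm had it, and Slc7a11, Gstm2, Gstk1, Gpx7 and Gstt3 had no match in these windows. The AP-1 motif TGANTCA, which can overlap the first, was present in 5 of the 52 windows and in 7.81% of all. The stretches below, all read 5′ to 3′ on the strand of the gene and ending at the annotated gene start, show the one called gene with a match (Gclm, chr3:122245307-122245486, plus strand), the gene with the largest fall and no match (Gstm2, chr3:107986421-107986670, minus strand), and 2 genes of the thioredoxin system with matches that were not called (Prdx1, chr4:116685349-116685598, and Srxn1, chr2:152105274-152105523, both plus strand). Capitals mark matches to either motif.
Gclm: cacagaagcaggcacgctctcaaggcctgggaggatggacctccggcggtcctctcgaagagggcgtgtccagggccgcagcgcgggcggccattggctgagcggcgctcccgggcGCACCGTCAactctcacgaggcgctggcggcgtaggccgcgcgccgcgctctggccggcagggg
Gstm2: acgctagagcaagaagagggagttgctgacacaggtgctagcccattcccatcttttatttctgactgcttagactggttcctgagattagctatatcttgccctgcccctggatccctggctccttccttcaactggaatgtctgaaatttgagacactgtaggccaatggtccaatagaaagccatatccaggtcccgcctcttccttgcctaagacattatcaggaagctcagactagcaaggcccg
Prdx1: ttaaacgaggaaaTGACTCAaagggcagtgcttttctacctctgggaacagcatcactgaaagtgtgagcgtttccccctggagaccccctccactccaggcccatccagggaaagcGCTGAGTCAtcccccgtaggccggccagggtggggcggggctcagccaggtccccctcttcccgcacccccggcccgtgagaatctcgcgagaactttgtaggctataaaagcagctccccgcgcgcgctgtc
Srxn1: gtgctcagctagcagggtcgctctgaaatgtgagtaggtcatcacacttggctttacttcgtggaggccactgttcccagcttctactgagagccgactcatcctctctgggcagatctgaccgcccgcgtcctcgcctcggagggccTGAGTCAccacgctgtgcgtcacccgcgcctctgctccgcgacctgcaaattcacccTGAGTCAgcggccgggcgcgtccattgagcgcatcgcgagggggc
In Gclm the capitals are an antioxidant response element core on the opposite strand (GCACCGTCA). In Prdx1 the first capitals are an AP-1 match and the second, GCTGAGTCA, match both motifs. In Srxn1 both are AP-1 matches, and its match to the antioxidant response element core lies after the start and is not shown. A match is a run of letters and not a measured binding site, and binding was not measured in these cells.

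Glutathione transferases made up 21 of the 44 genes, and 2 fell, 1 rose and 18 did not pass. The mu class gave the largest change. Gstm2 read 85974, 111884 and 97089 in wild type and 70182, 66553 and 62673 in knockout. The groups did not overlap, and knockout stood at 67.9% of wild type (-0.56 ± 0.10, limma adjusted p = 0.0128). All 3 Gstm2 probes were called lower over all probes, at -0.56, -0.56 and -0.61. Mu-class genes are close paralogs that lie next to each other, the probe sequences were not used here, and cross-hybridisation between them was not tested.

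Of the other mu-class genes none was called. Gstm1 read 5921, 8149 and 6882 in wild type and 5899, 5561 and 4660 in knockout (-0.37 ± 0.13, limma adjusted p = 0.145), with wild type replicate 1 and knockout replicate 1 nearly equal, and its dimmer second probe was at -0.02 ± 0.08. Gstm5 (-0.27 ± 0.10, limma adjusted p = 0.172) and Gstm6 (-0.20 ± 0.09, limma adjusted p = 0.263) passed an unadjusted p under 0.05, and the 3 probes of Gstm6 gave -0.16 to -0.21. Gstm4 was at -0.19 ± 0.10, Gstm7 at -0.02 ± 0.07 and Gstm3, below the array median in all 6 arrays, at 0.10 ± 0.08. The class median was -0.20, with 6 of 7 differences below 0 (85.7%, against 58.0% of all genes and 63.1% of bright genes).

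The single kappa-class gene Gstk1, whose enzyme is found in mitochondria and peroxisomes, read 6138, 7002 and 6382 in wild type and 5134, 5064 and 5005 in knockout. The knockout arrays were close together and all below wild type, at 78.0% of its level (-0.36 ± 0.08, limma adjusted p = 0.0230). Its second probe gave -0.20 ± 0.09 and was not called. Gstt3, of the theta class, went the other way, with 4733, 5053 and 4553 in wild type and 6403, 6607 and 6188 in knockout. The lowest knockout array was above the highest wild-type array, and the level was 134.0% of wild type (0.42 ± 0.07, limma adjusted p = 0.0100). Its second probe lay below 910 in every array and gave -0.05 ± 0.07, so the mean of both probes was 0.18 and did not pass (limma adjusted p = 0.104, in a range of 0.000836 to 0.138 over its alternatives). The other theta-class genes, Gstt1, Gstt2 and Gstt4, were at -0.05 ± 0.12, -0.04 ± 0.09 and -0.04 ± 0.08.

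Gstp1, the pi-class enzyme abundant in many cultured cells, missed the threshold narrowly. It read 30817, 31057 and 33280 in wild type and 27720, 24345 and 24708 in knockout, without overlap (-0.31 ± 0.08, limma adjusted p = 0.0525). Its other bright probe gave -0.19 ± 0.08. Gstp2 and Gstp3, the pi-class copies beside it, were at 0.10 ± 0.13 and 0.10 ± 0.09. In the alpha class Gsta4, which conjugates lipid aldehydes such as hydroxynonenal, read 7336, 9900 and 8439 in wild type and 7108, 5570 and 6540 in knockout (-0.41 ± 0.13, limma adjusted p = 0.0972). The groups were separate by a narrow margin, between wild type replicate 1 and knockout replicate 1. Gsta1 and Gsta2 were not above the median of all probes, and Gsta3 was at -0.11 ± 0.08. The omega-class genes Gsto1 (-0.19 ± 0.09) and Gsto2 (-0.02 ± 0.08) did not pass.

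**Figure D3:**
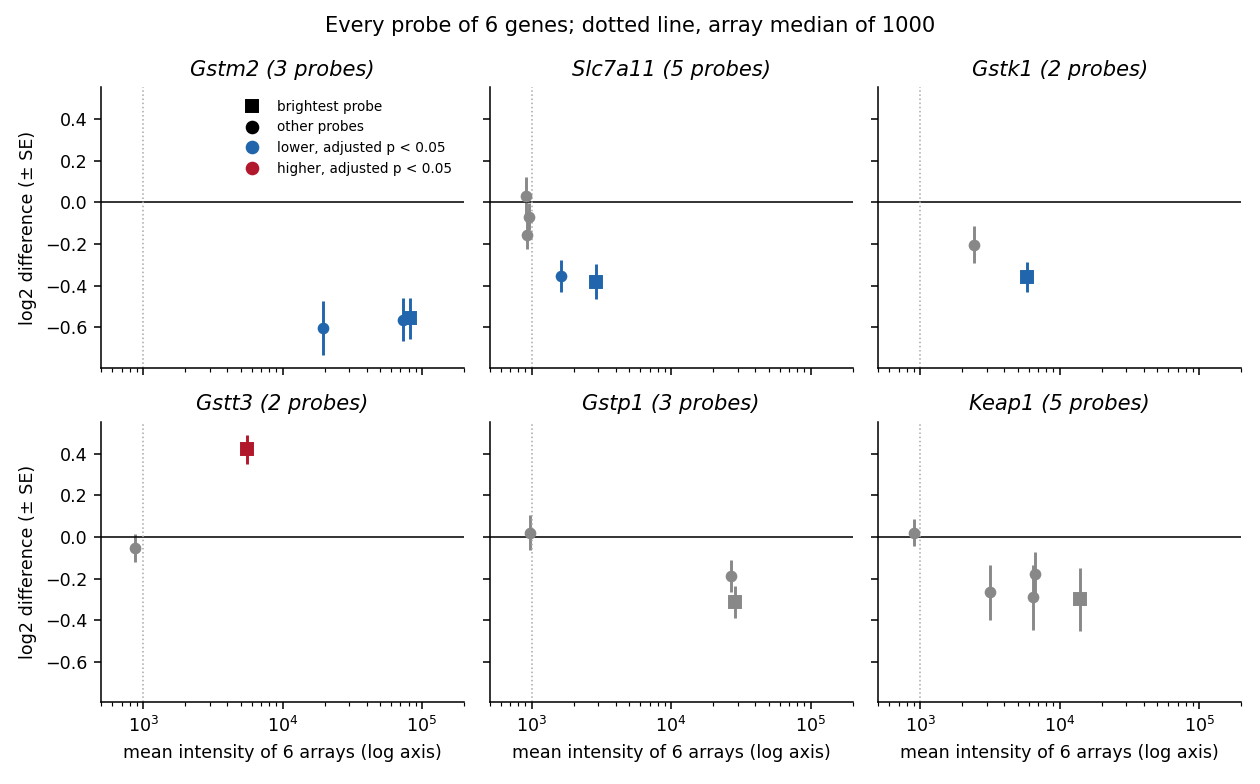
Log2 difference (± SE) of every probe of 6 genes against its mean intensity over the 6 arrays (log axis), with squares for the brightest probe of a gene, circles for its other probes, blue for probes called lower, red for the probe called higher and a dotted line at the array median of 1000. The 3 bright Gstm2 probes lie together near -0.6, and the 6 probes of Slc7a11, Gstt3, Gstp1 and Keap1 near the dotted line lie between -0.16 and 0.03.

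Among the 8 glutathione peroxidases 1 fell and 7 did not pass. Gpx7, a member of the endoplasmic reticulum that lacks selenocysteine, read 21693, 28438 and 27110 in wild type and 19561, 18447 and 19046 in knockout. Wild type varied more than knockout but the groups did not overlap, and knockout stood at 74.3% of wild type (-0.43 ± 0.10, limma adjusted p = 0.0438). Its adjusted p was the highest of the 6 calls. Gpx8, the related enzyme of the same compartment, was at -0.06 ± 0.09, with its 3 probes from -0.07 to 0.14. The cytosolic Gpx1 had means of 91591 ± 6694 and 91389 ± 11243 (SD, n = 3 each; -0.01 ± 0.10), and Gpx4, which reduces lipid peroxides in membranes, 84505 ± 11849 and 88200 ± 13852 (0.06 ± 0.13). The secreted Gpx3 was at 0.02 ± 0.16, the widest error of the 44 genes. Gpx2, typical of the gut, read 1030 to 1133 as group means, near the array median as for Gclc. It was lower in all 3 knockout arrays (-0.14 ± 0.08, limma adjusted p = 0.401). The margin was narrow, 1069 in knockout replicate 1 against 1080 in wild type replicate 1. Gpx5 and Gpx6 were not above the median of all probes.

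The thioredoxin and peroxiredoxin genes, which reduce protein disulfides and peroxides beside glutathione, gave no call among 4 measured, and 0 of the 4 passed an unadjusted p under 0.05 in limma. Srxn1, sulfiredoxin, which repairs oxidised peroxiredoxins and is a classic NRF2 target, read 16449, 18063 and 18675 in wild type and 19043, 14758 and 16773 in knockout. The ranges overlapped, with the highest value in knockout replicate 1 (-0.08 ± 0.10). Prdx1 had means of 101883 ± 11855 and 105672 ± 8561 (SD, n = 3 each; 0.06 ± 0.10). Txnrd1, thioredoxin reductase, read 1075, 1019 and 1148 in wild type and 1039, 1101 and 1038 in knockout (-0.03 ± 0.08). As for Gclc, that is the level of the array median. The brightest Txn1 probe read 1613 to 2154 over the 6 arrays (0.07 ± 0.12).

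Nqo1 and Hmox1, a quinone reductase and the inducible haem oxygenase, are also classic NRF2 targets, as are Gclm and Slc7a11, which were called lower. Of Nqo1 and Hmox1, 0 of 2 passed, adjusted or not. Nqo1 read 2537, 2385 and 2660 in wild type and 2467, 2519 and 2350 in knockout. The ranges overlapped, with the lowest value in knockout replicate 3 and the highest in wild type replicate 3, and the difference was -0.05 ± 0.07 (limma adjusted p = 0.838). Hmox1 read 16796, 18291 and 19003 in wild type and 18576, 11876 and 15170 in knockout (-0.27 ± 0.14, limma adjusted p = 0.387). Knockout replicate 1 lay within the wild-type range and knockout replicate 2 was lowest. Catalase (Cat, -0.18 ± 0.11) and the superoxide dismutases Sod1 (0.04 ± 0.07) and Sod2 (0.14 ± 0.09) did not pass. A much dimmer Sod1 probe, with means of 1130 and 1377, gave 0.29 ± 0.09 without overlap of the groups and was not called (limma adjusted p = 0.125). A miss of the threshold does not show that the genotypes were alike, and the standard errors of the 44 genes ran from 0.07 to 0.16.

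A further 99 genes of neighbouring pathways were listed by role, of which 95 were measured. Of these, 4 rose, 4 fell and 87 did not pass, or 8.42% called against the 6.28% of all genes, with a median log2 difference of -0.02. All 8 were among the 79 bright genes of these lists (10.1%, against the 9.94% of all bright genes), so the share called was near the background. The lists were chosen with earlier results of these data known, so this share is a description only. Genes of glutathione breakdown and cysteine supply held the largest fall. Chac1, a cyclotransferase that breaks down glutathione, read 46677, 49259 and 45554 in wild type and 27058, 23443 and 23367 in knockout (-0.94 ± 0.08, limma adjusted p = 0.000259). The knockout arrays lay close together and far below wild type. Ggct, which acts on the gamma-glutamyl amino acids of the same cycle, rose, with means of 1910 ± 113 and 2635 ± 126 (SD, n = 3 each; 0.47 ± 0.08, limma adjusted p = 0.00807). The other 13 of 15 genes of that list did not pass.

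Among 17 enzymes of quinone, aldehyde and foreign-chemical metabolism 2 rose and 15 did not pass. Cyp1b1, a cytochrome P450 of fibroblasts, read 8681, 8198 and 6633 in wild type and 19450, 16699 and 16767 in knockout (1.18 ± 0.11, limma adjusted p = 0.000403). Its rise of 2.26-fold was the largest difference of the 95 genes and the 44 as deposited, and after background correction it was 1.25 on the log2 scale. The microsomal transferase Mgst2 rose from 1219 ± 67.3 to 2110 ± 182 (SD, n = 3 each; 0.79 ± 0.09, limma adjusted p = 0.000826). Its wild-type arrays lay near the array median, and after background correction its difference was 1.34, above that of Cyp1b1.

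The remaining lists held 1 call each or none. Blvrb, a biliverdin and flavin reductase, fell from 25041 ± 4623 to 15581 ± 585 (SD, n = 3 each; -0.67 ± 0.12, limma adjusted p = 0.0122), alone among 8 genes of iron, haem and metal handling. Idh1, a cytosolic source of NADPH, fell from 47293 ± 3667 to 36286 ± 3178 (-0.38 ± 0.09, limma adjusted p = 0.0415), alone among 7 genes of NADPH supply. Glrx, glutaredoxin, rose from 18272 ± 1445 to 24682 ± 2368 (0.43 ± 0.10, limma adjusted p = 0.0281), alone among 19 relatives of thioredoxin and peroxiredoxin. Xdh, xanthine oxidoreductase, which can produce superoxide, fell from 5106 ± 651 to 2714 ± 543 (-0.92 ± 0.15, limma adjusted p = 0.00621), alone among 9 producers of superoxide and peroxide. Of 7 export pumps limma called 0, with 3 at an unadjusted p under 0.05. Of 13 partners and regulators of NRF2 it called 0, with 0 at an unadjusted p under 0.05. Chac1, Cyp1b1 and Mgst2 stayed called when any 1 array was left out, as did Ggct. Xdh was lost without knockout replicate 3 (limma adjusted p = 0.0523), Blvrb without wild type replicate 3 or knockout replicate 2 or 3 (up to 0.0806), and Glrx without wild type replicate 3 or knockout replicate 1 or 2 (up to 0.143). Idh1 was lost without wild type replicate 1 or 3 or knockout replicate 2 or 3 (up to 0.183), and also after quantile normalization (0.0839). The mean of all Ggct probes was 0.16 (limma adjusted p = 0.134). After background correction (normexp) Chac1, Cyp1b1, Mgst2 and Xdh stayed called. Ggct (limma adjusted p = 0.0562), Blvrb (0.0758), Glrx (0.200) and Idh1 (0.257) were lost.

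**Figure D4:**
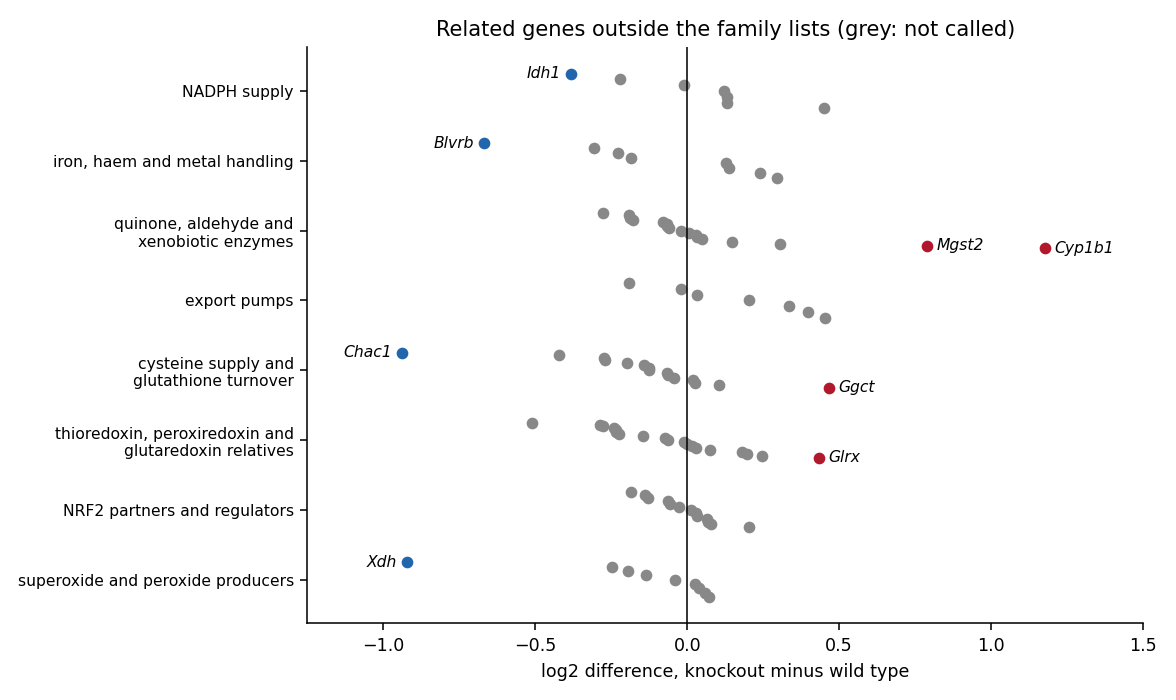
Log2 difference (knockout minus wild type) of 95 genes of neighbouring pathways, 1 point per gene, grouped by list, with blue for lower calls, red for higher calls and grey for genes not called. The 8 called genes are named, and they run from Chac1 at -0.94 to Cyp1b1 at 1.18, while the 13 partners and regulators of NRF2 lie between -0.18 and 0.20.

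The 44 genes differed in how much they varied within a genotype. The residual SD on the log2 scale ran from 0.05 for Gsta1, a dim probe, to 0.28 for Gpx3, with a median of 0.11 against 0.10 over all genes. For 17 of the 44 genes the arrays of highest upper quartile, wild type 2 and knockout 1, were each the highest of their group (38.6%, against 32.6% of all genes). All 17 were bright, which made 45.9% of the 37 bright members against 47.9% of all bright genes. The 17 included all 5 genes called lower, and also Keap1, Nfe2l2, Gpx3 and Gpx4. Without both arrays limma called 6 of the 44 genes, namely Gclm, Gstm2, Slc7a11 and Gstt3 as before, with Gstm5 and Gstp1 in place of Gpx7 and Gstk1. Over all genes it then called 1700.

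Leaving out single arrays changed the calls, and each omission also left fewer residual degrees of freedom. Without wild type replicate 1 all 6 stayed called, and Gsta4 and Gstm1 were called too. Without knockout replicate 2 limma called 0 of the 44 genes, with 10 at an unadjusted p under 0.05, without knockout replicate 3 it called Gstt3 alone, and without wild type replicate 3 Gclm alone. Without wild type replicate 2 the calls of Gpx7 and Slc7a11 were lost, and without knockout replicate 1 those of Gpx7 and Gstk1. Calls over all genes moved as well, from 1196 with every array. They were 1594, 1438 and 511 without wild type replicates 1, 2 and 3 in turn. For knockout replicates 1, 2 and 3 they were 1111, 617 and 463. The sizes moved less than the calls: over the 6 omissions the difference of Gclm stayed between -0.41 and -0.52 and that of Gstm2 between -0.46 and -0.65. After a background correction (normexp) 0 of 44 were called, with 8 at an unadjusted p under 0.05 and the 6 differences between 0.40 and 0.56 in size. Over all genes that correction gave 538 calls. Of 15 alternatives, Gclm was called in 11, Gstm2 and Gstt3 in 10, Gpx7 and Slc7a11 in 7 and Gstk1 in 6, and all 6 kept their direction in every one. Calls were also gained: Gsta4 after quantile normalization, Gsta4 and Gstm1 after 75th percentile scaling, Gsta4, Gstm1, Gstp1 and Nfe2l2 with array weights, and Gstm5 and Gstp1 without knockout replicate 1.

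**Figure D5:**
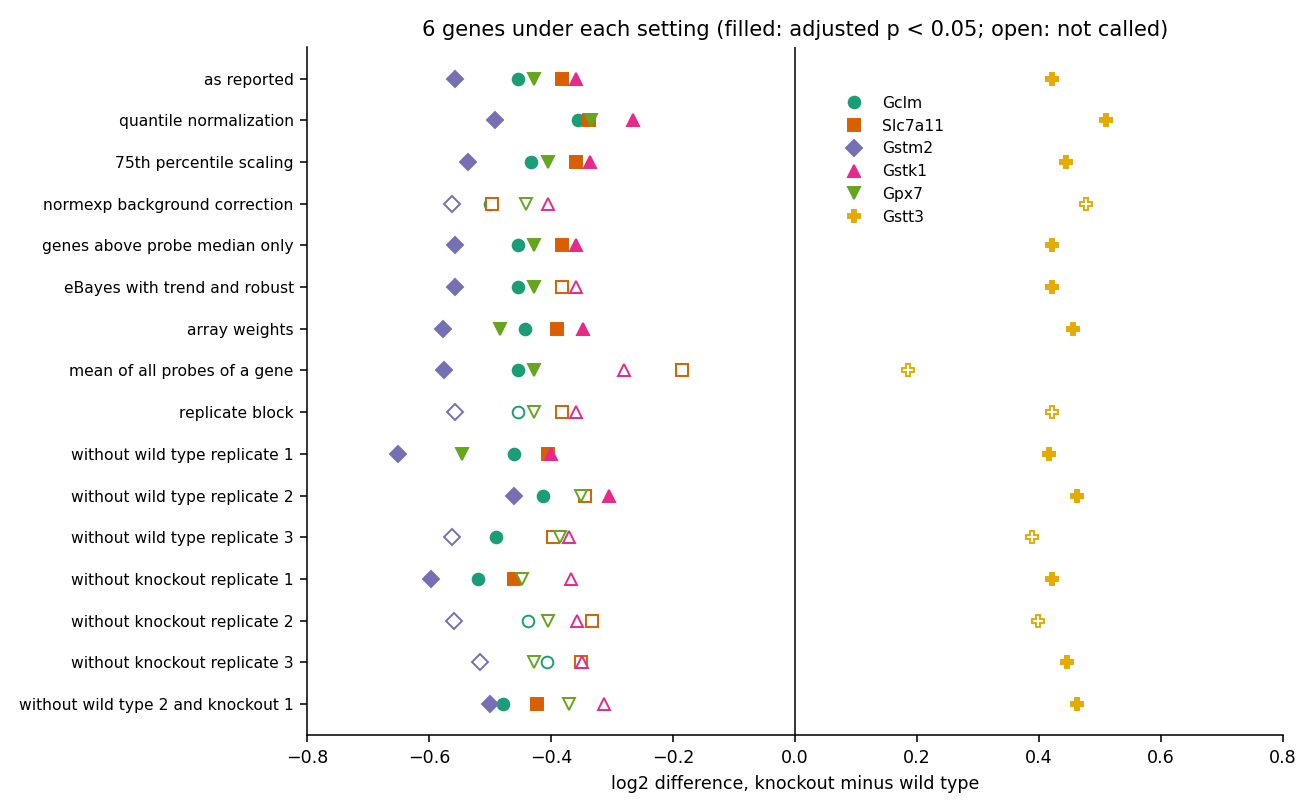
Log2 difference (knockout minus wild type) of the 6 called genes as reported and under 15 alternative settings or omissions of arrays, 1 row each, with a symbol and colour for each gene. Filled symbols are called at a limma adjusted p under 0.05 and open symbols are not, and no symbol crosses 0 although all 6 are open after background correction, with the replicate block and without knockout replicate 2.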

How the data were processed

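The authors' deposited values are linear probe intensities of 6 Illumina bead arrays (3 per genotype), each scaled to a median of 1000 over 45281 probes. RNA came from a column kit and was labelled as biotinylated cRNA, per the labels' protocols. The sources used here do not give scanner, software or background handling. The lowest value was 593. If that floor is background light, folds of dim genes are understated. Arrays give no counts, and their number limits the precision.

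Probes with 1 gene symbol in the supplied annotation (34885; 18 had several, 10378 none) were kept, with the probe of highest mean log2 for each gene. Linear models of the log2 values (limma 3.58.1, R 4.3.3) had genotype as the only term, with moderated variances (4 residual and 5.13 prior degrees of freedom), two-sided, adjusted by Benjamini-Hochberg over 19057 genes. The fit was tested on simulated data. Values in every array are given for called genes, the core NRF2 genes and those of unadjusted p under 0.05 in brief, and for neighbouring pathways up to 3 rises and 3 falls per list. The genes and lists were chosen with earlier results of these data known. Alternatives were quantile normalization, 75th percentile scaling, normexp (offset 50), a filter on dim genes, trend and robust eBayes (statmod 1.5.0), the mean of all probes, array weights, a replicate block and omission of each array. Omission of 2 arrays together was chosen after seeing the data. Motifs were searched with Python 3.11.15.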

Additional observations from a re-analysis of the deposited data

How the results depend on the processing

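Of all genes, 418 higher and 778 lower became 1009 higher after quantile normalization, 726 higher after 75th percentile scaling, 222 and 316 after normexp, 985 and 2282 with array weights, and 658 higher without wild type replicate 2 and knockout replicate 1. Of the 44 genes, 1 higher and 5 lower became 0 and 0 after normexp, 2 and 8 with array weights, 0 and 3 with the mean of all probes, and 3 lower with trend and robust eBayes. Of the 95 neighbouring genes, 4 and 4 became 10 higher after quantile normalization, 9 higher after 75th percentile scaling, 2 and 2 after normexp, 13 and 17 with array weights, and 9 and 7 without wild type replicate 2 and knockout replicate 1. The causes were not tested. Leaving out each array in turn gave 207 to 729 higher and 244 to 1217 lower calls over all genes, 0 to 1 and 0 to 7 among the 44, and 3 to 9 and 1 to 8 among the 95. Lasp1 stayed called, at -1.27 to -1.55. Signs turned under some alternative for 18 of the 44 genes, none of them called and each within 0.099 of 0 as reported. Of the genes with values given in every array these were Nqo1 with the mean of all probes (0.025), Srxn1 after quantile normalization (0.025) and without knockout replicate 2 (0.014, in a range of -0.17 to 0.014 over the omissions), and Txnrd1 without wild type replicate 3 (0.017, in a range of -0.069 to 0.017).

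The labels give both genotypes replicates 1 to 3 but do not say that the numbers pair arrays, so the numbers were not taken as pairs. Deviations from the group mean of same-numbered arrays correlated at -0.41, -0.34 and 0.22 over the 11985 bright genes. Deviations in a group of 3 sum to 0, so these correlations depend on each other and cannot settle whether arrays are paired. Wild type 2 with knockout 1 (0.47) and wild type 1 with knockout 2 (0.40) correlated more than any same-numbered arrays, a hint from the data and not the design. The former were also the arrays of highest upper quartile (2330 and 2283) and the latter of lowest (2041 and 2018). The cause was not tested. With the replicate number as a block, which joins arrays that correlated below 0 for numbers 1 and 2, limma called 179 genes higher and 236 lower, 0 and 0 of the 44 (10 at an unadjusted p under 0.05), and 2 and 1 of the 95. The block also left fewer residual degrees of freedom than the main fit.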
